A study of Homo sapiens with 8 samples.

Results

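The genes described here encode the subunits of the proteasome and the proteins named with them. They are the 44 protein-coding genes whose symbol is PSMA, PSMB, PSMC, PSMD, PSME or PSMF followed by a number, of 38759 genes with a level in the deposited tables, 19058 of them protein-coding. The rule picks genes by name and uses no measured value, but it was chosen with earlier results of these data known. PSMC3IP came in through its name and encodes a recombination cofactor, not a subunit, and PSMB3, a subunit of the beta ring, was not analysed here. Total RNA was measured by sequencing in HEK293, an established human embryonic kidney line, which was transfected in every group. Among the 8 groups, 2 received siRNA, either a control siRNA or AUF1 siRNA, and 6 received a plasmid, either the empty vector or one for Flag-AUF1 p37, p40, p42, p45 or these isoforms combined. AUF1 is encoded by HNRNPD and binds AU-rich stretches of mRNA, with known effects on decay and translation, and the isoforms are its splice forms. Each group held 1 library, so the differences below have no replicate check and no p-value. The passage number is given as unknown, and no source used here names the promoter of the expression vectors.

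The proteasome degrades proteins tagged with ubiquitin. Its core is a barrel of outer alpha rings, which gate the entrance, and inner beta rings, which hold the proteolytic sites. A regulatory cap sits on the end of the barrel: its base unfolds substrates with a ring of ATPases, and its lid takes the ubiquitin off. Dedicated chaperones build the particle, alternative activators can replace the cap, and interferon exchanges the catalytic beta subunits for inducible ones. The transcription factor NFE2L1 is known to raise the subunit genes together through antioxidant response elements in their promoters.

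Because these genes share that regulation, their promoters were searched for the core of the antioxidant response element, TGACNNNGC on either strand. The windows ran from 250 bases before to 50 bases after a start, and a gene could have more than 1. RefSeq promoters on GRCh38.p14 were matched for 39 of the 44 genes. The core occurred in a window of 12 of these 39 genes, 30.8%, and of 16.1% of 27305 genes. The number of windows per gene was not matched. The CCAAT box, searched as CCAAT on either strand and counted separately with no rule for overlap, occurred in 19 genes, 48.7%, against 39.7% of all genes. Such a match is a run of letters in the window and no measured binding. The examples below come from 1 gene of the alpha ring, 1 of the base ATPases, 2 of the lid and 1 activator. Each lies upstream of the start that its window was built on, with the matched core in capitals.
PSMA4, chr15:78540650-78540678, plus strand: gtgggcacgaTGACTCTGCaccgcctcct
PSMC5, chr17:63827654-63827682, plus strand: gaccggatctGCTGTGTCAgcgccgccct
PSMD3, chr17:39980760-39980788, plus strand: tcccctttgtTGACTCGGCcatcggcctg
PSMD12, chr17:67366724-67366752, minus strand: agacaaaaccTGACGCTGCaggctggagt
PSME1, chr14:24136098-24136126, plus strand: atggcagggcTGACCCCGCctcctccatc
In PSMC5 the core lies on the strand opposite to the one printed. The 4 other examples carry it on the printed strand. PSMC5 also has a window built on an earlier start, and its example lies downstream of that start. The genes with a match and the genes without one are not compared in expression here.

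Levels are FPKM, fragments scaled to transcript length and to the mapped fragments of the library, as Cufflinks estimated them for each transcript. They were summed per gene over annotated transcripts of 300 nt or more and divided by 1 scaling factor per library, between 0.939 and 1.07. Relative depth, read from the coverage that corresponds to 1 FPKM, ran from 0.213 in the library of combined isoforms to 0.345 in the p42 library, and read numbers are unknown. HNRNPD stood at 295 FPKM under the control siRNA and 165 FPKM under the AUF1 siRNA, which is 56.0% of the control. It stood at 311 FPKM under the empty vector and at 2987 to 4841 FPKM in the 5 overexpression libraries. Of 8 marker genes of HEK293, 7 were found. Their summed level was 64.7 to 85.5 FPKM, with NEFM at 29.9 to 50.9 FPKM and L1CAM listed at 0 in every library. The sum of 8 fibroblast markers was 6.85 to 15.2 FPKM, that of 8 leukocyte markers 5.06 to 19.99 FPKM and that of 8 markers of a cervical carcinoma line 59.5 to 91.1 FPKM, the last mostly from CAV1 and LGALS1. In bulk libraries, fewer cells with a transcript and less of it per cell cannot be told apart.

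Of the 44 genes, 39 reached a mean of 5 scaled FPKM over the 8 libraries, the level asked for before a ratio was taken. Those that did not were PSMA8, the testis form of an alpha subunit, PSMB8 and PSMB9, 2 inducible beta subunits, PSMB11, the thymus form of a beta subunit, and PSME4, an activator with a mean of 4.92 FPKM. The plot of levels by gene shows the core subunits at the top of the range. Among the alpha ring genes the median over libraries ran from 18.9 FPKM for PSMA1 to 205 FPKM for PSMA7. In the beta ring it ran from 40.9 FPKM for PSMB2 to 179.6 FPKM for PSMB4. The ATPases of the base lay between 7.74 FPKM for PSMC6 and 65.6 FPKM for PSMC2, and the 8 lid genes within a narrower range, from 26.7 FPKM for PSMD13 to 43.1 FPKM for PSMD7. The subunits of a particle are thus listed at levels that differ many-fold between genes, although each value is already per transcript length. The order in the alpha ring depended on the transcripts counted and on their weights. When transcripts assembled from the reads were added, PSMA1 stood at 29.2 to 44.9 FPKM and not at 12.5 to 25.9 FPKM. With each transcript also weighted by its length, it stood at 53.5 to 80.5 FPKM. The weights are relative to the longest annotated transcript, so a weighted level can lie above or below the plain sum. PSMA2 stood at 67.1 to 102 FPKM in the plain sum and at 10.9 to 18.9 FPKM on the weighted measure.

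**Figure D1:**
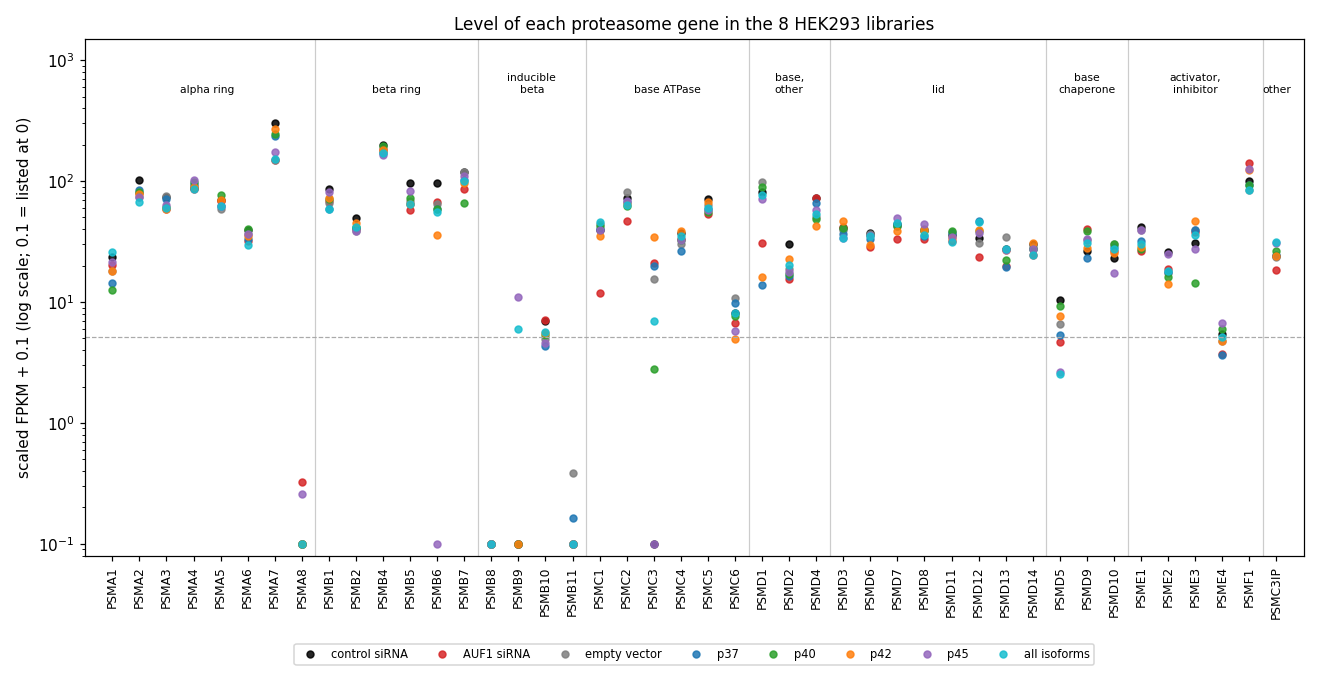
Each point is the scaled FPKM of 1 gene in 1 library, on a log axis with 0.1 added, grouped by place in the particle; the dashed line marks a level of 5 FPKM. PSMA7 and PSMB4 lie highest by their median, at 205 and 179.6 FPKM, and PSMB6 and PSMC3 each have a library at 0 although their mean passes the line.

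Most proteasome genes were lower in the AUF1 siRNA library than in the control siRNA library. A ratio was available for 38 of them, and 32 lay below 0. The median log2 ratio, taken on FPKM plus 1, was -0.32, against -0.05 over all 9457 genes with a ratio, of which 53.5% lay below 0. With a 2-fold difference as the call, 0 were higher and 4 were lower: PSMC1, PSMD1, PSMA7 and PSMD5. Over all genes 9.72% were called higher and 4.93% lower, so 4 of 38 is a larger share of lower calls than the background, and no test of that difference is given. By role, all 7 tested alpha ring genes, all 6 beta ring genes and all 5 tested ATPases were below 0, with medians of -0.29, -0.39 and -0.39. Of the 8 lid genes 7 were below 0, with a median of -0.33. Apart from the called genes, the ratios of the alpha ring ran from -0.35 for PSMA2 to -0.002 for PSMA5, those of the beta ring from -0.74 for PSMB5 to -0.11 for PSMB4, and those of the ATPases from -0.62 for PSMC2 to -0.17 for PSMC4. In the lid, PSMD12 was lowest at -0.49. The genes above 0 were PSMD9 and PSMD10, chaperones of the base, at 0.57 and 0.17, PSMF1, a proteasome inhibitor, at 0.49, PSME3, an activator of the nuclear proteasome, at 0.31, PSMD3 of the lid at 0.03 and PSMB10 at 0.01. With assembled transcripts and length weights, PSMD10 and PSME3 lay below 0, at -0.22 and -0.15. PSMD9, PSMF1, PSMD3 and PSMB10 then stood at 0.06, 0.28, 0.04 and 0.07.

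The shift depended in part on the control library. The control siRNA library was the highest of the 8 for 13 of 37 genes, 35.1%, against 19.2% of all genes, and the lowest for 0. The AUF1 siRNA library was the lowest for 13 of 37 genes, 35.1%, against 17.3% of all genes. Set against the empty vector in place of the control siRNA, the median was -0.20, with 24 of 39 genes below 0 and 2 called. Over all genes the median was then -0.04, 53.5% lay below 0 and 13.5% were called. The summed leukocyte markers stood at 5.06 FPKM in the control siRNA library and 19.99 FPKM in the AUF1 siRNA library, and the fibroblast markers at 10.0 and 15.2 FPKM. Their part in the shift was not tested.

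**Figure D2:**
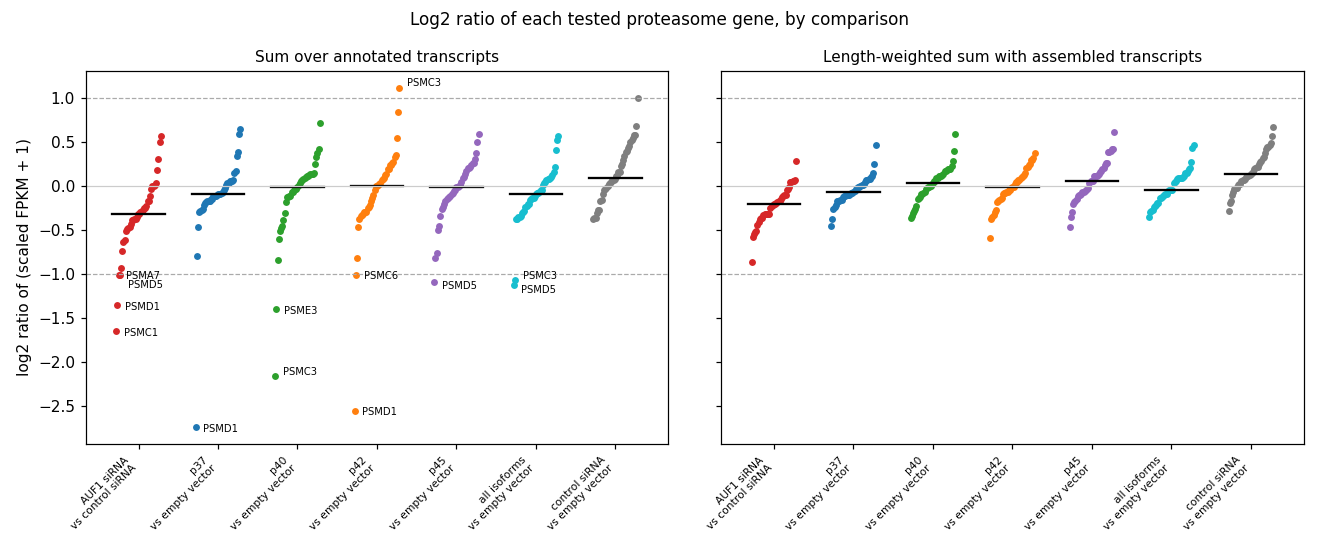
Each point is the log2 ratio of 1 tested proteasome gene in the comparison named on the horizontal axis, the black bar is the median, and dashed lines mark 2-fold. On the left, with annotated transcripts summed, named genes pass 2-fold in every comparison but that of the controls; on the right, with assembled transcripts added and lengths weighted, 0 genes do, and the median of the AUF1 siRNA comparison is -0.21.

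The calls rested on a few transcripts each. PSMC1 (ENSG00000100764, hg19 chromosome 14, 90722894 to 90738966), an ATPase of the base, stood at 39.3 FPKM under the control siRNA and 11.9 FPKM under the AUF1 siRNA, a log2 ratio of -1.65. It stood at 44.4 FPKM under the empty vector and at 39.9, 42.3, 35.2, 39.5 and 45.7 FPKM under p37, p40, p42, p45 and the combined isoforms. The AUF1 siRNA library was thus below the 7 others, whose levels lay close together, and the bounds that Cufflinks gave for its transcripts, summed, were 9.31 to 14.4 FPKM against 31.5 to 47.0 FPKM in the control. In the AUF1 siRNA library, however, an assembled transcript of 1586 nt, the length of the coding transcript PSMC1-201, held a further 19.3 FPKM, while the coding transcript PSMC1-202 was listed at 0. With assembled transcripts and length weights, PSMC1 stood at 36.3 FPKM under the control siRNA and 32.1 FPKM under the AUF1 siRNA, a log2 ratio of -0.17.

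PSMA7 (ENSG00000101182, hg19 chromosome 20, 60711791 to 60718496), a subunit of the alpha ring, differed 2.02-fold between its lowest and highest library. It stood at 301, 235, 247 and 269 FPKM under the control siRNA, p37, p40 and p42. It stood at 149, 150.3, 175 and 153 FPKM under the AUF1 siRNA, the empty vector, p45 and the combined isoforms. The higher and the lower values do not follow the treatments, since the control libraries were on opposite sides. The 4 lower values belong to the libraries in which an assembled transcript of 618 or 619 nt was listed at the locus, with 151, 128, 124 and 154 FPKM. With assembled transcripts and length weights, PSMA7 lay between 189 and 232 FPKM in all 8 libraries, and its ratio in the AUF1 siRNA comparison was -0.04 in place of -1.01.

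PSMD1 (ENSG00000173692, hg19 chromosome 2, 231921578 to 232037541), the large scaffold subunit of the base, had the widest spread of the 37 genes above 0 in all libraries, 7.07-fold from lowest to highest. It stood at 80.7 FPKM under the control siRNA, 97.7 FPKM under the empty vector and 89.99, 70.7 and 76.1 FPKM under p40, p45 and the combined isoforms. In the AUF1 siRNA, p37 and p42 libraries it stood at 30.9, 13.8 and 15.8 FPKM. The difference lay in a single short transcript, PSMD1-208 (ENST00000467792), annotated as a retained intron and 444 nt long. It was listed at 66.2, 91.0, 72.6, 70.7 and 66.1 FPKM in the 5 libraries with high levels and at 0 in the 3 others. Its deposited status was LOWDATA, too few reads for a reliable estimate, in all 8 libraries. Of its 444 bases, 349 also belong to exons of PSMD1-201, the coding transcript of 3326 nt, so fragments within those bases belong to both models. The opening of PSMD1-208 is shown because most of the level of the gene in 5 libraries was assigned to this transcript (GRCh38, chr2:231153469-231163710, plus strand, bases 1 to 180 of the transcript), with capitals for the 95 bases outside the exons of PSMD1-201.
PSMD1-208: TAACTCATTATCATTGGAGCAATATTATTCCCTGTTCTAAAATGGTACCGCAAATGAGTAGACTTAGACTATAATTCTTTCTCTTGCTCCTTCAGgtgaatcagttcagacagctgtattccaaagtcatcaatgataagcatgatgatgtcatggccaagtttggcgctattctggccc
With coding transcripts alone, the ratios of PSMD1 turned to 1.13, 0.94 and 0.47 in the AUF1 siRNA, p37 and p42 comparisons. Of the coding level under the AUF1 siRNA, 20.8 FPKM came from PSMD1-207, a transcript of 696 nt. It was listed at 0 in every other library, and its status was LOWDATA in all 8 libraries. With assembled transcripts and length weights PSMD1 stood at 24.4 to 38.9 FPKM, and the ratios in these comparisons were -0.36, -0.46 and -0.59.

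PSMD5, a chaperone that helps to assemble the base, was low in all libraries. It stood at 10.2 FPKM under the control siRNA, 4.59 FPKM under the AUF1 siRNA and 6.54 FPKM under the empty vector. It stood at 5.27, 9.11, 7.58, 2.55 and 2.45 FPKM under p37, p40, p42, p45 and the combined isoforms. The summed bounds were wide, 1.83 to 18.9 FPKM under the control siRNA and 1.77 to 7.41 FPKM under the AUF1 siRNA, and overlapped. Of the control level, 4.72 FPKM came from a retained-intron transcript of 384 nt that was listed at 0 in the 7 other libraries. Length-weighted with assembled transcripts, PSMD5 stood at 1.75 to 2.75 FPKM and was under the minimum for a ratio.

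The plot of FPKM by transcript class shows PSMC1, PSMA7 and PSMD1 beside PSMB6, PSMC3 and PSME3. PSMC3, an ATPase of the base, was listed at 0 in the control siRNA and p45 libraries when annotated transcripts were summed. It stood at 20.9 FPKM under the AUF1 siRNA, 15.5 FPKM under the empty vector and 19.8, 2.68, 34.6 and 6.85 FPKM under p37, p40, p42 and the combined isoforms. In 3 of these libraries part of the level, 15.9, 14.7 and 16.2 FPKM under the AUF1 siRNA, p37 and p42, was assigned to PSMC3-211 (ENST00000531653), a retained-intron transcript of 498 nt with status LOWDATA. It shares 433 bases with exons of the coding transcript PSMC3-201. Its last 180 bases, 319 to 498, are shown because they hold what sets it apart (GRCh38, chr11:47424364-47426259, minus strand), with capitals for the 65 bases outside the exons of PSMC3-201.
PSMC3-211: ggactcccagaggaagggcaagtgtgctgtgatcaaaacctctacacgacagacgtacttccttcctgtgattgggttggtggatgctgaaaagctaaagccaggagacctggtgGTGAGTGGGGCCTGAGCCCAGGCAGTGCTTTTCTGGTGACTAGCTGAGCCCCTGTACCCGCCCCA
Assembled transcripts of 1482 to 1507 nt at this locus held 28.3 and 31.4 FPKM in the libraries where the annotated ones were listed at 0, and 8.21 to 18.7 FPKM in 5 others. Counted with length weights, PSMC3 stood at 21.0 to 31.0 FPKM in all 8 libraries.

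**Figure D3:**
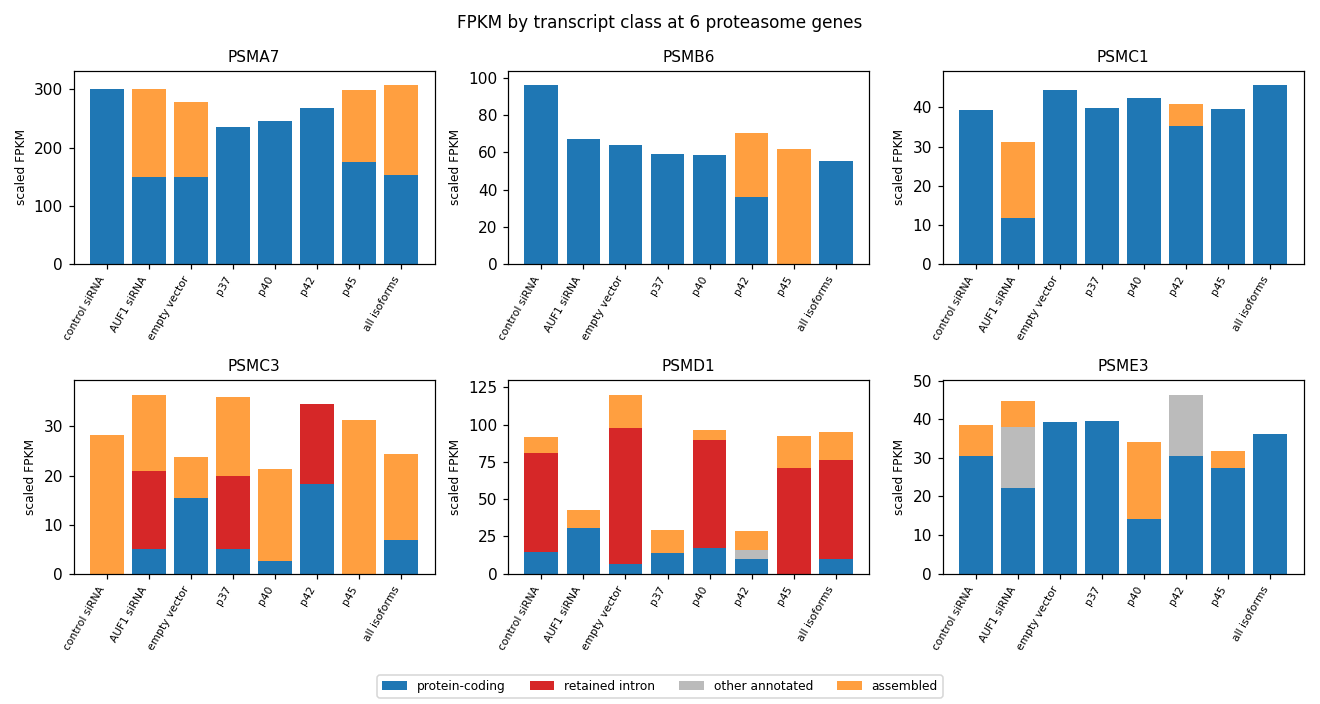
Stacked bars give the scaled FPKM of 6 proteasome genes in each library, by class of transcript: protein-coding, retained intron, other annotated, and assembled from the reads. At PSMA7, PSMB6 and PSMC1 assembled transcripts appear where the annotated level is low, and at PSMC3 in every library but that of p42. At PSMD1 a retained-intron transcript makes up most of 5 bars.

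The lower level in the AUF1 siRNA library was smaller when transcripts were weighted by their length. With assembled transcripts and length weights, a measure chosen after the first results were seen, 39 genes had a ratio and 33 lay below 0. Of these, 0 passed 2-fold, where 4.7% of all 8334 genes did (3.83% higher and 0.876% lower). The median was -0.21, against -0.06 over all genes, of which 56.6% lay below 0. All 6 ATPases, 5 of 6 beta ring genes, 6 of 7 alpha ring genes and 7 of 8 lid genes were below 0. The lowest ratio was that of PSMD2, a scaffold subunit of the base, at -0.87 (24.8 FPKM under the control siRNA and 13.2 FPKM under the AUF1 siRNA). PSMD2 stood at 15.3 FPKM under the empty vector and at 13.5 to 19.0 FPKM under overexpression, so that the control siRNA library, not the AUF1 siRNA library, stood apart. The highest ratio was that of PSMF1 at 0.28. Against the empty vector, the median on this measure was -0.13 and 23 of 39 genes lay below 0, which is nearer to the 55.5% of all genes below 0.

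Among the catalytic subunits, PSMB6 and PSMB7 had 1 annotated transcript each with a level and PSMB5 had 3. PSMB5, the subunit with chymotrypsin-like activity, stood at 97.1 FPKM under the control siRNA and 57.6 FPKM under the AUF1 siRNA, a log2 ratio of -0.74. It stood at 68.8 FPKM under the empty vector and at 65.0, 72.3, 64.1, 82.3 and 64.4 FPKM under p37, p40, p42, p45 and the combined isoforms. The AUF1 siRNA library was the lowest and the control siRNA library the highest, with summed bounds of 44.5 to 70.7 and 80.6 to 114 FPKM that do not overlap. PSMB7, with trypsin-like activity, stood at 119 FPKM under the control siRNA, 85.7 FPKM under the AUF1 siRNA and 119.7 FPKM under the empty vector. With overexpression it stood at 103, 66.3, 97.1, 109.6 and 101 FPKM, all below both controls. The p40 value was the lowest, and 98.4 FPKM when assembled transcripts and length weights were used. PSMB6, with caspase-like activity, stood at 96.1 FPKM under the control siRNA, 67.4 FPKM under the AUF1 siRNA and 64.0 FPKM under the empty vector. It stood at 59.1, 58.6, 35.9 and 55.2 FPKM under p37, p40, p42 and the combined isoforms and was listed at 0 with p45. Assembled transcripts held 34.4 FPKM under p42 and 61.6 FPKM under p45, and on the length-weighted measure PSMB6 lay between 55.6 and 69.5 FPKM in 7 libraries and at 94.7 FPKM under the control siRNA.

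Inducible counterparts of these subunits were low or unlisted. PSMB8, which replaces PSMB5, was listed at 0 in all 8 libraries. PSMB9, which replaces PSMB6, was listed above 0 with p45 at 10.8 FPKM and with the combined isoforms at 5.88 FPKM, both from a single transcript of 439 nt, and at 0 elsewhere. On the length-weighted measure it was at 1.13, 0.78, 1.81 and 0.97 FPKM under the AUF1 siRNA, p42, p45 and the combined isoforms and at 0 in the 4 others. PSMB10, which replaces PSMB7, stood at 6.89, 6.96 and 4.86 FPKM under the control siRNA, the AUF1 siRNA and the empty vector. It stood at 4.22, 5.20, 5.40, 4.51 and 5.54 FPKM under p37, p40, p42, p45 and the combined isoforms. Both siRNA libraries were above the 6 vector libraries. In every library PSMB10 was far below PSMB7.

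**Figure D4:**
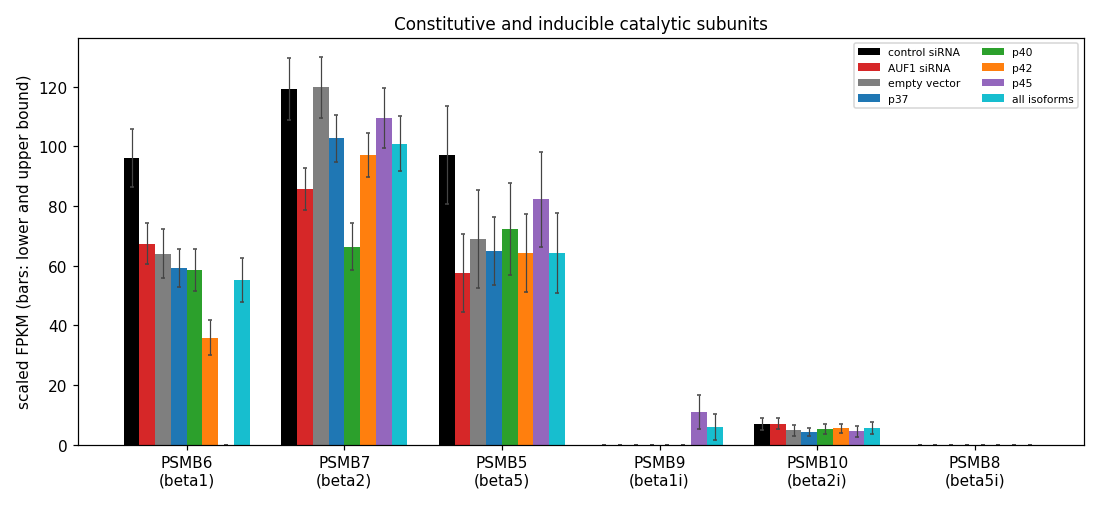
Bars give the scaled FPKM of the constitutive catalytic genes PSMB6, PSMB7 and PSMB5 and of their inducible counterparts PSMB9, PSMB10 and PSMB8 in the 8 libraries, and the thin lines run from the summed lower to the summed upper bound of the transcripts. The constitutive genes stand at 35.9 FPKM or more except PSMB6 with p45, listed at 0, and the inducible genes at 10.8 FPKM or less.

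The 5 comparisons share the empty vector library, so a deviation of that library enters all of them. With p37, the median of 39 ratios was -0.10 (-0.01 over all genes), and 1 gene was called, PSMD1 at -2.74, where 8.58% of all genes were called in either direction. PSMA7 was highest at 0.64. With p40, the median was -0.02 and 2 genes were called lower, PSMC3 at -2.16 and PSME3 at -1.40, against 9.4% of all genes called in either direction, and PSMA7 was again highest at 0.71. PSME3 stood at 14.3 FPKM under p40 and 39.3 FPKM under the empty vector, while an assembled transcript of 2975 nt held 19.8 FPKM under p40, and the length-weighted ratio was -0.23.

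With p42, the median was -0.01 and 3 genes were called, PSMC3 at 1.11, PSMD1 at -2.55 and PSMC6, another ATPase of the base, at -1.01, against 8.32% of all genes. PSMC6 stood at 10.7 FPKM under the empty vector, at 4.82 FPKM under p42 and at 5.64 to 9.76 FPKM in the 6 other libraries, and its length-weighted ratio under p42 was -0.33. With p45, 37 genes had a ratio, the median was -0.02 and 1 was called, PSMD5 at -1.09, against 10.7% of all genes. PSMF1 was the highest at 0.59. With the combined isoforms, the median was -0.09 and 2 were called, PSMD5 at -1.13 and PSMC3 at -1.07, against 8.94% of all genes. The lid subunit PSMD12 was the highest at 0.56. In each of these comparisons the share of proteasome genes called was below that of all genes, but with p42, at 3 of 39, it was close to it. The genes compared were not matched by level, and no test of these differences is given. On the length-weighted measure 0 proteasome genes were called in any of the 5, where 1.75%, 2.34%, 1.75%, 2.68% and 1.76% of all genes were called with p37, p40, p42, p45 and the combined isoforms.

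The 5 overexpression libraries were also set against both control libraries. Of 37 genes above 0 in all 7 libraries, PSMD12 alone, 2.70%, was above both controls in all 5, against 6.39% of all genes. In turn 6 genes, 16.2%, were below both controls in all 5, against 7.03% of all genes, and no test of that difference is given. PSMD12 (ENSG00000197170, hg19 chromosome 17, 65334032 to 65362743) stood at 47.0, 38.8, 39.7, 37.1 and 46.1 FPKM under p37, p40, p42, p45 and the combined isoforms. It stood at 33.4 and 30.8 FPKM in the control siRNA and empty vector libraries and at 23.6 FPKM, its lowest, with the AUF1 siRNA. The order of the libraries was thus AUF1 siRNA, both controls, overexpression, without overlap, and it was the same on the length-weighted measure, at 19.97, then 24.0 and 25.2, then 27.6 to 33.4 FPKM. PSMD12 was picked out for lying above both controls, and the share of all genes with this full order is not given. The bounds of single libraries overlapped, 27.9 to 39.0 FPKM under the control siRNA and 31.3 to 42.9 FPKM under p45. The difference came from the shorter coding transcript PSMD12-202, at 9.40 FPKM under the AUF1 siRNA, 15.1 and 17.6 FPKM in the controls and 22.4 to 30.4 FPKM under overexpression.

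The 6 genes below both controls were PSMA3 of the alpha ring, PSMB7, the ATPase PSMC2, PSMD6 and PSMD13 of the lid, and PSME1, a subunit of the interferon-inducible activator. PSMC2 stood at 72.5 and 80.9 FPKM in the control siRNA and empty vector libraries, at 61.6 to 68.3 FPKM under overexpression and at 47.0 FPKM under the AUF1 siRNA. PSME1 stood at 41.6 and 39.4 FPKM in the controls, at 27.4 to 39.0 FPKM under overexpression and at 26.4 FPKM under the AUF1 siRNA. All 6 genes were below both controls in the AUF1 siRNA library as well as in the overexpression libraries. Under the AUF1 siRNA, PSMA3, PSMB7, PSMD6 and PSMD13 stood at 59.1, 85.7, 28.6 and 19.6 FPKM. The control siRNA library held 73.8, 119, 37.5 and 27.5 FPKM of them and the empty vector library 75.8, 119.7, 36.7 and 34.1 FPKM. The gap between the nearest overexpression and control libraries, on the log2 scale, ran from -0.12 for PSMB7 to -0.0014 for PSMD13 and was 0.14 for PSMD12. On the length-weighted measure 2 genes were above both controls, PSMD12 and PSMC3IP, and 6 below (PSMA2, PSMA3, PSMB6, PSMB7, PSMC2 and PSMD10) of 39, which is 5.13% and 15.4%, against 5.92% and 8.08% of all genes.

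The control libraries were also compared with each other, which shows how far libraries without a change in AUF1 differed. The control siRNA library against the empty vector gave a median of 0.09 over 38 genes, with 25 above 0 and 0 called, where 11.2% of all genes were called. With FPKM as deposited, before scaling, this median was -0.0913 and that of all genes moved by -0.18. PSMA7 had the highest ratio, 0.997, and PSMD10 the lowest, -0.37. On the length-weighted measure the median was 0.14, with 8 of 39 genes below 0, 20.5%, against 49.9% of all genes. The beta ring genes had a median of 0.36 and the lid genes of 0.04 on the summed measure. The summed level of all 44 genes was highest with the control siRNA, 2334 FPKM, lowest with the AUF1 siRNA, 1848 FPKM, and 1899 to 2029 FPKM in the 6 vector libraries. With assembled transcripts and length weights, these sums were 1674, 1435 and 1424 to 1537 FPKM. In these sums the control siRNA library alone stood apart. Gene by gene on this measure, the control siRNA library was the highest for 13 of 39 genes, 33.3%, against 20.9% of all genes. The AUF1 siRNA library was the lowest for 14, 35.9%, against 21.4% of all genes.

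Across the 8 libraries most proteasome genes kept to a narrow range. Among the 37 genes above 0 in all libraries, the highest level was a median of 1.68 times the lowest, and 30 were within 2-fold, 81.1%, against 1.97 times and 51.1% for 8939 genes. PSMA4 had the narrowest range at 1.19-fold, from 85.3 to 101 FPKM. The 37 leave out PSMB6, at 0 to 96.1 FPKM, and PSMC3, at 0 to 34.6 FPKM. The genes compared were not matched to the proteasome genes by level. On the length-weighted measure 39 of 39 genes were within 2-fold with a median of 1.42, against 82.5% and 1.502 for 8190 genes, and PSME3 was the narrowest at 1.18-fold. Assembled transcripts made up 2.99% to 13.0% of the FPKM of proteasome genes. They were at or above 10.8% in the AUF1 siRNA, p45 and combined isoform libraries.

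The wider pathway was taken from 38 genes in 5 lists: assembly chaperones, further subunits and bound factors, transcriptional regulators, ubiquitin shuttles with the p97 segregase, and ubiquitin with its activating enzymes. With the AUF1 siRNA, 31 had a ratio, 21 lay below 0, 2 were called higher and 0 lower. Over all genes 53.5% lay below 0, 9.72% were called higher and 4.93% lower. The genes called higher were VCP, the p97 segregase itself, at 1.87 and the ubiquitin gene RPS27A at 1.32. VCP stood at 6.06 FPKM under the control siRNA, 24.8 FPKM under the AUF1 siRNA, 73.8 FPKM under the empty vector and 18.5 to 70.0 FPKM under overexpression. Its length-weighted level with assembled transcripts was 31.5 and 31.0 FPKM in the siRNA libraries, and that of RPS27A 253 and 173 FPKM, so neither was higher on that measure. On it, 33 genes had a ratio, 25 lay below 0 and 0 were called, where 56.6% of all genes lay below 0 and 4.7% were called.

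The lowest pathway ratios in the AUF1 siRNA comparison were those of the assembly chaperones PSMG2 and POMP and, at -0.85, of NGLY1, an enzyme that activates NFE2L1. PSMG2, which builds the alpha ring, stood at 15.5 FPKM under the control siRNA and 7.98 FPKM under the AUF1 siRNA, a log2 ratio of -0.88. POMP, which matures the core, stood at 60.3 and 34.9 FPKM, a ratio of -0.77. POMP stood at 32.8 FPKM under the empty vector and 26.7 to 40.7 FPKM under overexpression, so the control siRNA library again stood above the other 7. NFE2L1 itself stood at 10.3 to 14.4 FPKM in all libraries, with a ratio of 0.21 in the AUF1 siRNA comparison.

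Against the empty vector, 2 to 6 of 30 pathway genes were called in each overexpression comparison, where 8.32% to 10.7% of all genes were called. NFE2L2, a relative of NFE2L1, was called higher in 4 of them, with ratios of 1.52, 1.99, 1.67 and 1.43 with p40, p42, p45 and the combined isoforms. It was lowest in the shared empty vector library, at 22.1 FPKM, and on the length-weighted measure none of its ratios passed 2-fold. UCHL5, a deubiquitinase bound to the cap, was the pathway gene called in both measures. It stood at 112 FPKM under the empty vector and at 66.4, 45.1, 63.1, 61.3, 59.5, 55.7 and 54.4 FPKM under the control siRNA, AUF1 siRNA, p37, p40, p42, p45 and the combined isoforms. The empty vector library alone was high, and the length-weighted ratios were -0.90 to -1.23 against it for the overexpression libraries. ECPAS, an adaptor of the proteasome, was called lower with p37, p40 and p45, UBE3C, a bound ubiquitin ligase, with p42, p45 and the combined isoforms, and DDI2, the protease that cuts NFE2L1, with p45 at -1.06. VCP was called lower with p45 at -1.94, and UCHL5 and RPS27A with the combined isoforms at -1.03 and -1.37.

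The proteasome also makes the peptides that MHC class I presents. B2M, the light chain of MHC class I, stood at 28.1 FPKM under the control siRNA and 12.3 FPKM under the AUF1 siRNA, a log2 ratio of -1.13, and its ratio was -1.07 on the length-weighted measure. The empty vector library held 10.6 FPKM of B2M and the overexpression libraries 10.3 to 19.6 FPKM, so the control siRNA library was the highest for this gene too.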

How the data were processed

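Total RNA of 8 HEK293 libraries was analysed, from 100 ng of RNA and 18 PCR cycles per the labels. The deposited FPKM, with bounds and a status per transcript, are Cufflinks estimates per the file headers; Cufflinks 2.0.2, TopHat2 2.0.6, Cuffdiff and the build hg19 are listed in the submitters' processing notes, without an annotation release. The deposited coverage column, per the file headers, gave relative depth. Gene names came from GENCODE 29 and promoters from RefSeq. Of 160485 Ensembl transcripts 136915 matched GENCODE 29, 20273 were placed by gene or cluster and 3297 were not placed. FPKM of transcripts of 300 nt or more was summed per gene and divided by median-of-ratios factors; these used the 11807 genes that had 1 FPKM or more in every library. A ratio of FPKM plus 1, which understates low genes, needed a mean of 5 scaled FPKM, no failed transcript and a level above 0 in both libraries; a log2 ratio of 1 in size was called. The length-weighted measure multiplied FPKM by transcript length, summed it and divided by the longest annotated transcript of the gene; assembled transcripts were placed by a reciprocal overlap of 0.5. Genes were named if called, catalytic, extreme in a comparison or apart from both controls. The members, lists, thresholds and rules were chosen with earlier results of these data known. The code was tested on simulated data. Python 3.11.15, pandas 2.3.3 and numpy 2.4.6 were used. Bounds cover estimation within a library only. Some genes of the wider pathway lists are not reported here.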

Additional observations from a re-analysis of the deposited data

How the results depend on the processing

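No paired analysis was possible because each group held 1 library; leaving out a replicate could not be done either. The direction of the AUF1 siRNA median held under all 13 alternatives, while calls moved with most. Alternatives with coding or assembled transcripts were chosen after seeing the data. The cause was not tested where none is named. The share of all genes called also moved with the setting, so the counts of calls are not comparable between settings. For AUF1 siRNA it was 14.6% in the main setting, 14.9% with FPKM as deposited and 13.5% with the other control library. It was 7.55% with length weights, 9.93% at a minimum mean of 20 FPKM and 13.1% with coding transcripts. With assembled transcripts it was 11.9%, and 4.7% with length weights as well. In the order AUF1 siRNA, p37, p40, p42, p45, combined isoforms, the other control library gave medians of -0.20, -0.20, -0.17, -0.16, -0.14 and -0.22, and calls of 2, 1 and 1 for AUF1 siRNA, p40 and the combined isoforms. FPKM as deposited gave 2 calls for AUF1 siRNA, a median of -0.12 for p45 and of -0.0913 between the controls, where it moved the median of all genes by -0.18. Length weights gave 1, 0, 0, 0 and 1 calls for AUF1 siRNA, p37, p42, p45 and the combined isoforms. Transcripts of status OK alone gave 7, 2, 1 and 3 calls for AUF1 siRNA, p37, p42 and p45, and 4 between the controls. For AUF1 siRNA and p37, 35 and 36 members were then tested, and 16.4% and 11.1% of all genes were called. A minimum mean of 20 FPKM, which tests fewer genes, gave 1, 1, 0 and 0 calls for p40, p42, p45 and the combined isoforms. Between the controls, 75th percentile scaling and a pseudocount of 0.1 FPKM gave 1 call each. Coding transcripts alone gave 2, 0 and 0 calls for AUF1 siRNA, p42 and p45, medians of -0.20 for AUF1 siRNA and 0.0997 for p40, and ratios of 1.13, 0.94 and 0.47 for PSMD1 with AUF1 siRNA, p37 and p42. Assembled transcripts gave 1, 0, 1, 0 and 1 calls for AUF1 siRNA, p40, p42, p45 and the combined isoforms, and 0.0372 for PSMC3 with the combined isoforms. Assembled transcripts with length weights gave 0 calls in all 6, a median of -0.21 for AUF1 siRNA and 0.0321 for PSMC3 with the combined isoforms. With the other control library as well, calls were 0 in all 6, medians were -0.13, -0.15 and -0.16 for AUF1 siRNA, p40 and p42, and PSMA7 was at 0.15 with AUF1 siRNA and PSMC3 at -0.16 with p42. Read numbers are unknown, so the limit that depth sets was not computed; 5 of 44 genes did not reach the minimum mean.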
